A study of Homo sapiens with 6 samples.

Results

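The DNA replication and S phase genes described here are 40 genes, chosen by name for their roles, of 52408 genes in the counts table. All 40 were found by symbol and all passed the filter on low counts. The study gave HepG2 cells, a human liver cancer line, 50 µM ellagic acid (EA), a plant polyphenol, for 24 h, and gave control cells an equal volume of DMSO, its solvent. Both groups shared the same culture medium with serum and differed, per the labels, in EA alone. Each group had 3 RNA sequencing libraries. Whether the libraries of a group come from different dishes of cells is not told, and their spread, which every p-value here is built on, may be technical. Only 1 time and 1 dose were measured, and the cells are of 1 line.

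Copying the genome in S phase needs a set of proteins that proliferating cells make together. In G1 the origin recognition complex, CDC6 and CDT1 load the MCM helicase onto origins, CDC45 and the GINS complex switch it on, and polymerases with their clamp and clamp loader then copy the DNA from nucleotides that ribonucleotide reductase and thymidylate synthase help to supply. Many of these genes are known targets of the E2F factors. The retinoblastoma protein holds these factors in check until cyclin-dependent kinases, that of cyclin E included, act. In the adult liver most hepatocytes are quiescent and express them weakly, whereas liver cancer lines in culture express them strongly.

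Libraries held 15738089 to 19202292 assigned reads with EA and 22987425 to 25973621 with DMSO. Levels are in CPM, reads scaled to the library's size as adjusted by TMM, so each is relative to the other genes of its library. The test of EA against DMSO was edgeR's quasi-likelihood F test over 15648 genes, and a gene is called at a Benjamini-Hochberg adjusted p under 0.05. The line's hepatocyte markers summed to 13619 to 14172 CPM with EA and 51717 to 54597 CPM with DMSO. Most of this difference lay in 1 gene, APOB, at a mean of 3080 CPM with EA and 29447 CPM with DMSO. Of 12 such markers 11 were called lower and 1 higher, beside 40.5% lower and 40.5% higher over all tested genes. Log2 fold changes of the 11 ran from -4.28 (FGB) to -0.37 (FOXA2). The higher marker was APOA1, at a log2 fold change of 0.35. Its means were 1380 CPM with EA and 1085 CPM with DMSO, and its groups overlapped. Of the other markers, 2 fibroblast genes (COL1A2 and DCN) and 3 leukocyte genes (PTPRC, CD68 and CD3E) had 0 reads in all 6 libraries. The 5 fibroblast markers summed to 4.56 to 6.34 CPM with EA and 16.4 to 17.5 CPM with DMSO, the 5 leukocyte markers to 2.01 to 2.18 CPM with EA and 1.57 to 2.02 CPM with DMSO, and the 5 endothelial markers to 3.81 to 5.10 CPM with EA and 2.91 to 3.08 CPM with DMSO. The leukocyte and endothelial sums hide opposite changes of called genes. Values in brackets are mean CPM with EA and then with DMSO. Among leukocyte markers CSF1R rose (1.85 and 0.109) and CD14 fell (0.215 and 1.66). Among endothelial markers VWF rose (3.14 and 1.07) and CDH5 fell (0.336 and 1.30). PDGFRB (5.41 and 16.2) made up most of the fibroblast sum. The part of these markers in the results was not tested.

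Replication promoters often carry E2F motifs, so the promoters of the members were searched before their levels are given. RefSeq promoter windows (GRCh38.p14, 250 bases before to 50 after a gene's start) were found by symbol for 35 of the 40 genes. The motif was any of TTTGGCGC, TTTCGCGC, TTTCCCGC and TTTGCCGC on either strand. It was present in a window of 18 of the 35 members (51.4%), against 658 of the 10460 tested genes with a window (6.29%) and 1090 of all 27305 genes with a window (3.99%). Windows were matched for only part of the 15648 tested genes and of the 52408 in the table, so both backgrounds are incomplete and no test was made. The same motif stood in 22 of the 78 genes with a window (28.2%) among 96 other replication genes described further on. A match is a description of these letters and not a binding site. The 5 windows below were picked from those with the motif, and no window without it is shown. GINS2 had the largest decrease of the set, MCM3 and MCM6 encode helicase subunits and carried several matches, E2F1 is itself a factor of the family, and CDT1 carried the motif without being called. Capitals mark the motif on either strand, each window reads 5′ to 3′ on its gene's strand, and in MCM6 matches on opposite strands overlap.
GINS2 (chr16:85688905-85689204, minus strand): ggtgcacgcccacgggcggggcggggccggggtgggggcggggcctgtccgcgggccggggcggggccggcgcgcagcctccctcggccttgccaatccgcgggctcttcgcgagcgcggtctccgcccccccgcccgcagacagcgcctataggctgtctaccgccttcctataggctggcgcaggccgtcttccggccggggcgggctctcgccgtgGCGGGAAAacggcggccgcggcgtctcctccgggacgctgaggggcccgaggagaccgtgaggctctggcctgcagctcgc
MCM3 (chr6:52284693-52284992, minus strand): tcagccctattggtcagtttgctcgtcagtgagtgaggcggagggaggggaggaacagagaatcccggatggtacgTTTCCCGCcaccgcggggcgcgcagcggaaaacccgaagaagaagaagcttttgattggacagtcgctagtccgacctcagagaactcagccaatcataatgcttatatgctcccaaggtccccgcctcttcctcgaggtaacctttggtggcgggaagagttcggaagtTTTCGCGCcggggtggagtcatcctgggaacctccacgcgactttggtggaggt
MCM6 (chr2:135876394-135876693, minus strand): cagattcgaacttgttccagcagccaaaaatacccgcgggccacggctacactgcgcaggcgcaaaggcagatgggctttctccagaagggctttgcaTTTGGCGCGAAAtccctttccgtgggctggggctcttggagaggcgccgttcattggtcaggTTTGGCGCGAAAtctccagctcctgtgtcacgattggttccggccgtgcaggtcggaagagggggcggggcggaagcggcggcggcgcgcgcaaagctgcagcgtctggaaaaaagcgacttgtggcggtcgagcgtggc
E2F1 (chr20:33686336-33686635, minus strand): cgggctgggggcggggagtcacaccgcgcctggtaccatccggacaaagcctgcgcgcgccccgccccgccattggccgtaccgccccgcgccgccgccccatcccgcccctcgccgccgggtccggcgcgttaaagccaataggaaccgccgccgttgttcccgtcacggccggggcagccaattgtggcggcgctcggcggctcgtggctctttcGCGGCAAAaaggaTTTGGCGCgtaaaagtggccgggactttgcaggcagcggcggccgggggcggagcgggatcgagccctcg
CDT1 (chr16:88803539-88803838, plus strand): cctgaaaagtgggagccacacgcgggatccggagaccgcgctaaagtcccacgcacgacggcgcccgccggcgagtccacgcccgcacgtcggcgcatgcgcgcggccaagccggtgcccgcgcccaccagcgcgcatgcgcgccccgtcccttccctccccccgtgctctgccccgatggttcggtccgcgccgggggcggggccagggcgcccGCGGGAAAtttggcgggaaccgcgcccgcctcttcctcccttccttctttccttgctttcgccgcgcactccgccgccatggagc

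Replication genes were lower with EA almost throughout the set. Of the 40 members 38 were called lower, 0 higher and 2 were not called (CDT1 and the cyclin gene CCNE2). Over all tested genes 40.5% were called lower and 40.5% higher, 81.0% in all. The 38 include CHAF1B, which passed the filter on low counts only through the DMSO libraries. With a filter of at least 1 CPM in 3 libraries it was not tested, and 37 of 39 members were lower. The median log2 fold change of the members was -1.60, against 0.00441 over all tested genes. For 31 of the 38, CHAF1B among them, the estimated fall was 2-fold or more, which held for 21.5% of all tested genes. In 39 members all 3 EA libraries lay below all 3 DMSO libraries, as in 41.5% of all tested genes, and in 0 members they lay above, as in 41.4%. Together the 40 genes took 1247, 1342 and 928 CPM in the EA libraries and 3438, 3386 and 3259 CPM in the DMSO libraries (1172 ± 217 against 3361 ± 92.4, mean ± SD, n = 3 each). In bulk RNA fewer cells in S phase and less of these transcripts per cell cannot be told apart.

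**Figure D1:**
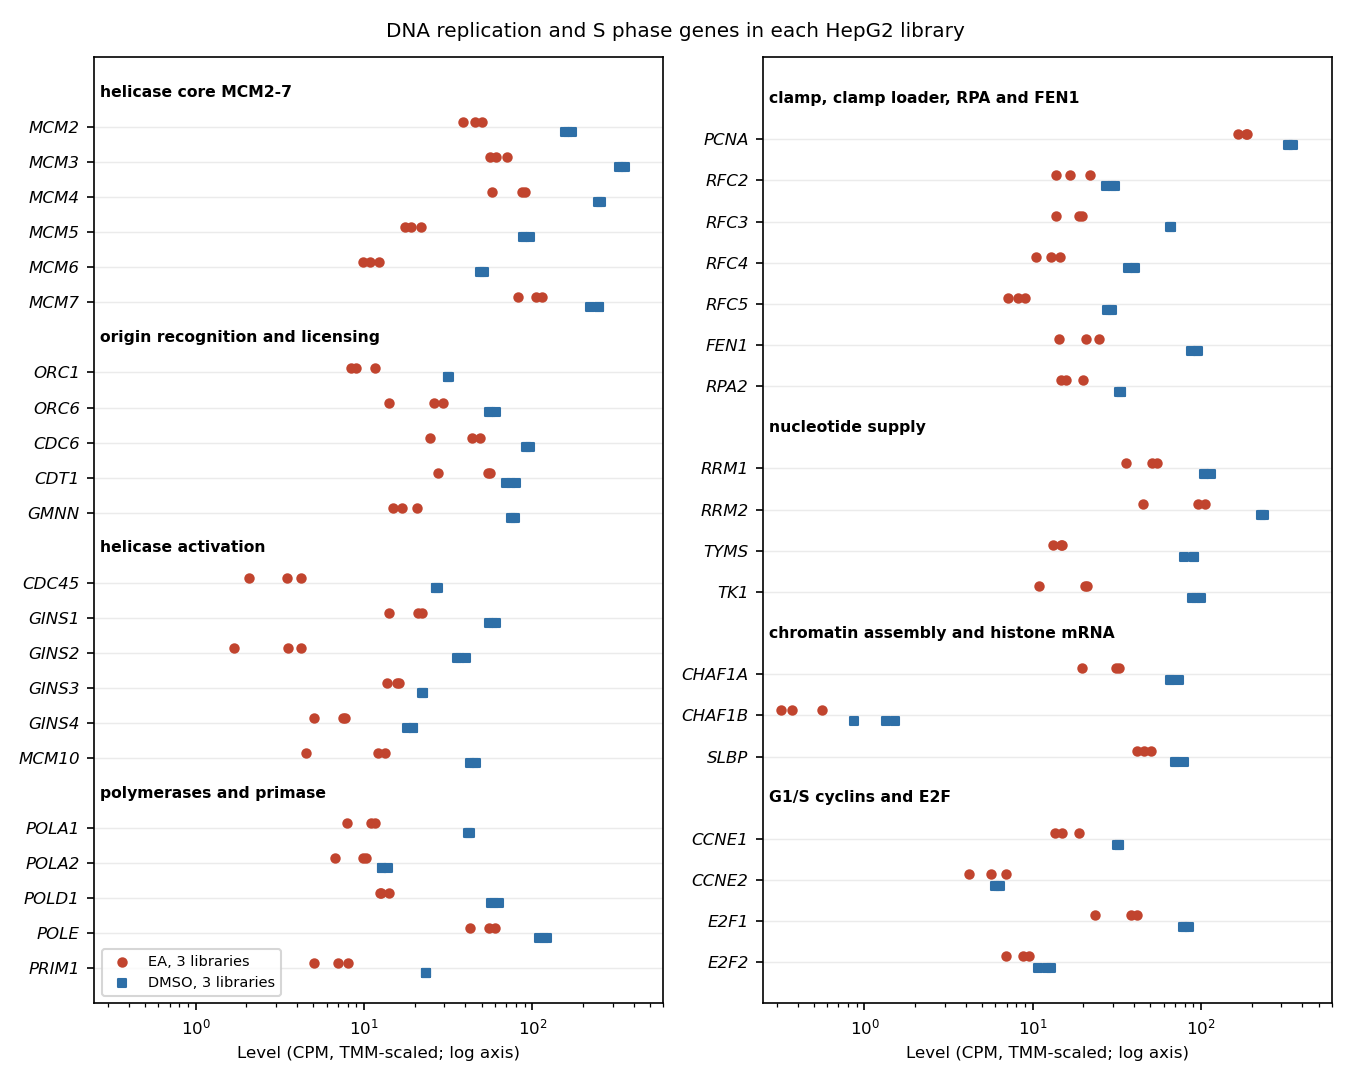
Level of each of the 40 genes in every library, in CPM on a log axis, with EA libraries as circles and DMSO libraries as squares, grouped by role. The circles lie left of all squares for every gene but CCNE2.

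The MCM2 to MCM7 proteins form the ring-shaped helicase that unwinds the template. MCM3 (ENSG00000112118) had 61.2, 70.9 and 55.7 CPM in the EA libraries and 357, 342 and 329 CPM in the DMSO libraries. MCM7 (ENSG00000166508) had 105, 114 and 82.7 CPM with EA and 248, 251 and 219.7 CPM with DMSO. All 6 subunits fell, and in none did the groups overlap. MCM3 had the largest decrease, a log2 fold change of -2.45 (SE 0.08, adjusted p = 1.05e-12 in edgeR's quasi-likelihood test), and MCM7 the smallest, -1.25 (SE 0.11, adjusted p = 4.87e-07). The log2 fold change was -2.24 for MCM5 (SE 0.09) and -2.19 for MCM6 (SE 0.09). It was -1.86 for MCM2 (SE 0.09) and -1.68 for MCM4 (SE 0.16).

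Because the subunits assemble in equal numbers, their transcripts were also set side by side per length, as CPM per kb of the longest coding transcript. MCM7 averaged 32.6 CPM per kb with EA and 77.6 with DMSO, and MCM3 averaged 19.5 with EA and 107 with DMSO. MCM6 was the least abundant in both groups, at 2.95 with EA and 13.5 with DMSO. Of the summed per-kb level of the 6 genes, MCM7 took 36.1%, 35.6% and 34.8% in the EA libraries and 23.7%, 24.3% and 22.7% in the DMSO libraries. MCM3 took 20.3%, 21.2% and 22.6% in the EA libraries and 32.8%, 31.9% and 32.7% in the DMSO libraries. MCM7 therefore headed the order with EA and MCM3 with DMSO, and the shares of MCM2 overlapped between the groups (13.3% to 13.8% with EA, 13.4% to 13.9% with DMSO). These shares were chosen with the values in view and have no test. In GENCODE 29 MCM7 shares 8.94% of its exon length with AP4M1 on the opposite strand, which had 50 to 75 reads with EA and 189 to 228 with DMSO.

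**Figure D2:**
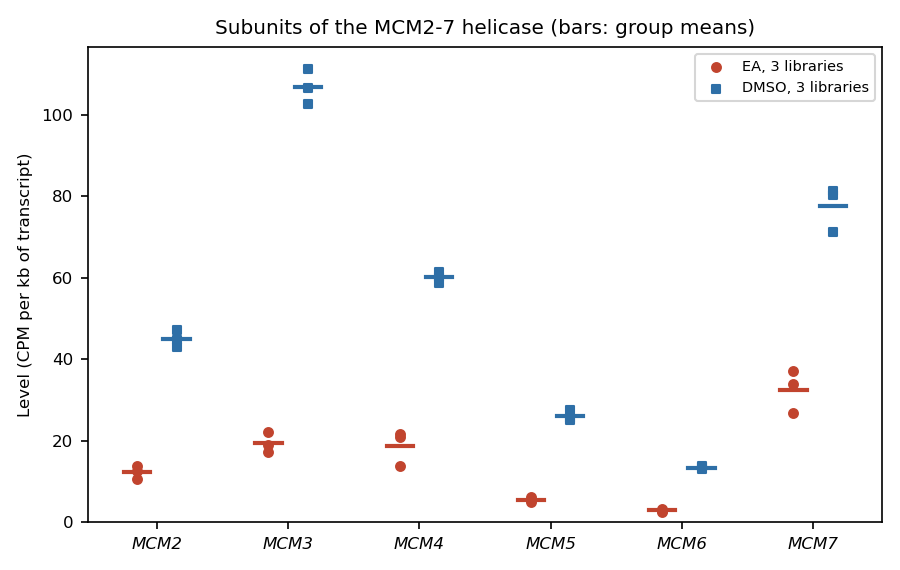
Level of the 6 helicase subunit genes per kb of transcript in each library, EA (circles) left of DMSO (squares), with bars at group means. MCM7 is the highest subunit with EA at 32.6 CPM per kb and MCM3 the highest with DMSO at 107.

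Loading of the helicase needs ORC1 and ORC6 of the origin recognition complex, CDC6 and CDT1, and is blocked by geminin (GMNN), which binds CDT1. GMNN had 16.9, 20.6 and 14.9 CPM in the EA libraries and 79.2, 74.5 and 77.1 in the DMSO libraries. CDT1 had 54.7, 56.3 and 27.5 CPM in the EA libraries and 74.9, 80.3 and 69.5 in the DMSO libraries. Both genes were lower in every EA library, by a wide margin for GMNN and a narrow one for CDT1. GMNN fell by 2.14 on the log2 scale (SE 0.10, adjusted p = 4.44e-11 in edgeR's quasi-likelihood test). The log2 fold change of CDT1 was -0.70 (95% interval -1.43 to 0.03, adjusted p = 0.0679) and was not called. Its EA replicate 3 stood at 0.496 times the mean of EA replicates 1 and 2, and without that library CDT1 was called at a log2 fold change of -0.46 (adjusted p = 5.60e-11 in edgeR's test).

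The ratio of CDT1 to GMNN reads, on the log2 scale, was 1.70, 1.45 and 0.89 in the EA libraries and -0.08, 0.11 and -0.15 in the DMSO libraries. The ratio was higher in every EA library, with a difference of 1.39. An exact two-sided permutation test over the 6 libraries gave p = 0.1, the smallest this design allows. ORC1 had a log2 fold change of -1.71 (SE 0.11), ORC6 of -1.31 (SE 0.27) and CDC6 of -1.27 (SE 0.25). CDC6 had 43.6, 48.9 and 24.7 CPM with EA and 96.3, 93.5 and 91.5 with DMSO, so the third EA library was again the lowest.

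The factors that turn the loaded ring into a moving helicase held the 2 largest decreases of the set. GINS2 (ENSG00000131153), a subunit of the GINS complex, had 3.55, 4.24 and 1.69 CPM in the EA libraries and 40.4, 35.5 and 37.3 in the DMSO libraries. CDC45 (ENSG00000093009), which rides with GINS on the helicase, had 4.23, 3.50 and 2.06 CPM with EA and 27.5, 26.8 and 26.7 with DMSO. The groups stood far apart for both genes, and EA replicate 3 was the lowest library. GINS2 fell by 3.58 (SE 0.22, adjusted p = 2.09e-07) and CDC45 fell by 3.06 (SE 0.17, adjusted p = 7.86e-10) on the log2 scale in edgeR's quasi-likelihood test.

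The 4 GINS subunits form 1 complex but did not fall alike. GINS3 had 15.7, 16.2 and 13.7 CPM with EA and 22.5, 22.4 and 22.2 with DMSO, a log2 fold change of -0.56 (95% interval -0.76 to -0.35). The interval of GINS2, -4.08 to -3.09, did not reach it. GINS1 and GINS4 lay between them at -1.62 and -1.50 (SE 0.14 and 0.14). MCM10, a scaffold protein needed to start unwinding, had 12.1, 13.3 and 4.49 CPM with EA and 46.1, 42.8 and 45 with DMSO. It fell by 2.17 (SE 0.36), and the wide error goes with EA replicate 3, at 0.353 times the mean of the other two EA libraries.

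**Figure D3:**
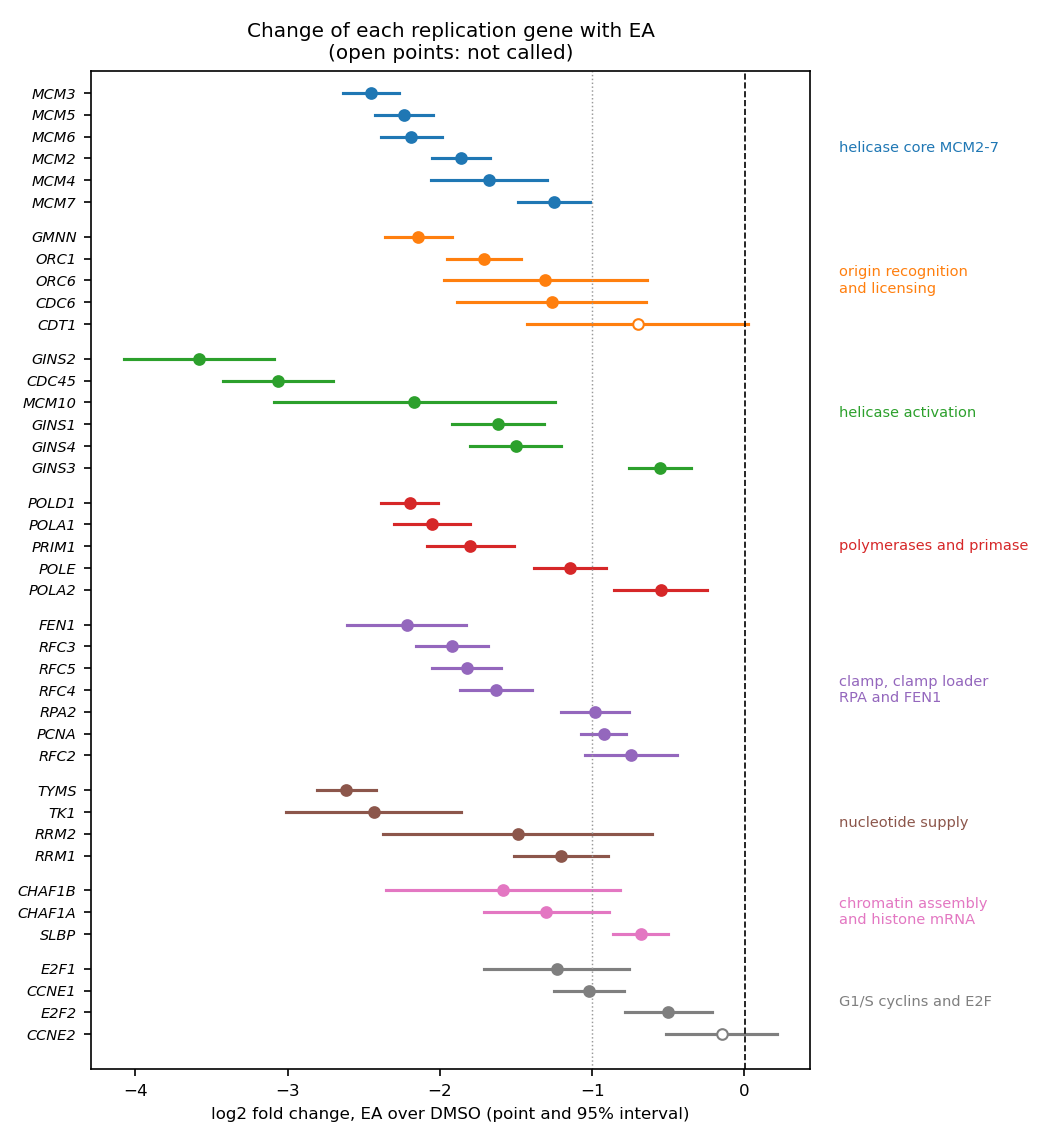
Log2 fold change of each member, EA over DMSO, with its 95% interval, grouped by role. The dashed line is the median of all tested genes, the dotted line a 2-fold decrease, and open points (CDT1 and CCNE2) were not called. Estimates run from -3.58 for GINS2 to -0.15 for CCNE2, all left of the dashed line.

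Polymerase genes differed among themselves as well. POLD1, the catalytic subunit of lagging-strand polymerase delta, had 12.6, 14 and 12.5 CPM with EA and 59.1, 63.6 and 57 with DMSO and fell by 2.20 on the log2 scale (SE 0.09). POLE, the catalytic subunit of leading-strand polymerase epsilon, had 59.6, 55.6 and 42.4 CPM with EA and 109.7, 122 and 117 with DMSO and fell by 1.15 (SE 0.11). In polymerase alpha, which lays down primers with primase, the catalytic subunit POLA1 fell by 2.05 (SE 0.12) and the accessory subunit POLA2 fell by 0.55 (SE 0.14). The primase subunit PRIM1 fell by 1.80 (SE 0.13). POLA2 had 9.90, 10.3 and 6.76 CPM with EA and 12.8, 13.8 and 12.8 with DMSO, so the groups did not overlap but stood close. A same-strand gene model with no row in the table, AP000944.2, covers 35.1% of its exon length in GENCODE 29.

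PCNA, the sliding clamp that ties polymerases to DNA, was the most abundant member per length in both groups, at 132 CPM per kb with EA and 249.9 with DMSO. It had 184, 188 and 165 CPM with EA and 354, 330.2 and 335 with DMSO. The 3 EA values lay close together, and the log2 fold change of -0.92 (SE 0.07, adjusted p = 6.42e-09 in edgeR's quasi-likelihood test) was a smaller decrease than that of most members. Processed pseudogene rows of PCNA held at most 3 reads in any library. The subunits of the clamp loader, which opens PCNA, split. RFC3, RFC5 and RFC4 had log2 fold changes of -1.92, -1.83 and -1.63 (SE 0.11 each), and RFC2 of -0.74 (SE 0.14). FEN1, the nuclease that trims Okazaki fragments on the clamp, had 20.7, 24.8 and 14.3 CPM with EA and 94.9, 96.2 and 87.5 with DMSO, a log2 fold change of -2.22 (SE 0.17). RPA2, a subunit of the protein that coats single-stranded DNA, fell by 0.98 (SE 0.11).

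Genes of nucleotide supply all fell. Thymidylate synthase TYMS (ENSG00000176890), which makes the thymidine nucleotide from its uracil counterpart, had 14.9, 14.8 and 13.1 CPM in the EA libraries and 91.2, 91.1 and 79.7 in the DMSO libraries. It had the smallest p of the set (log2 fold change -2.61, SE 0.09, adjusted p = 8.02e-13 in edgeR's quasi-likelihood test), and its 3 EA libraries were nearly equal. In GENCODE 29, 39.1% of the exon length of TYMS is shared with ENOSF1 on the opposite strand, which had 236, 300 and 272 reads with EA and 897, 912 and 893 with DMSO. No source used here states whether counting used strand, and without strand the reads of this pair cannot be told apart. TK1, the cytosolic thymidine kinase that salvages thymidine, had 20.5, 20.9 and 10.9 CPM with EA and 93.7, 101 and 88 with DMSO and fell by 2.44 (SE 0.23).

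Ribonucleotide reductase, which makes deoxyribonucleotides, pairs the large subunit RRM1 with the S phase subunit RRM2 or with RRM2B, a subunit known to be induced by p53. RRM2 had 96.1, 106 and 44.9 CPM in the EA libraries and 235, 229 and 227 in the DMSO libraries. RRM2B had 135, 148 and 172 CPM in the EA libraries and 82.4, 81.5 and 87.6 in the DMSO libraries. RRM2 fell by 1.49 on the log2 scale (SE 0.34, adjusted p = 0.0107) and RRM2B rose, at a log2 fold change of 0.86 (SE 0.08, adjusted p = 2.01e-07) in edgeR's quasi-likelihood test. The log2 ratio of RRM2B to RRM2 reads was 0.49, 0.49 and 1.94 in the EA libraries and -1.51, -1.49 and -1.37 in the DMSO libraries, so RRM2B reads outnumbered those of RRM2 in each EA library and in no DMSO library. The difference of 2.43 gave p = 0.1 in an exact two-sided permutation test, the smallest possible here. It was 1.95 without EA replicate 3. RRM1 fell by 1.2 (SE 0.14). RRM2 shares 20.2% of its exon length with a same-strand model, AC007240.1, that likewise has no row.

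Chromatin is rebuilt behind the fork by the CAF-1 complex. Its subunit CHAF1A had 32.5, 31.2 and 19.6 CPM with EA and 66.1, 73.7 and 65.2 with DMSO, a log2 fold change of -1.30 (SE 0.18). CHAF1B was the lowest member, with 9, 7 and 6 reads in the EA libraries and 39, 31 and 22 in the DMSO libraries. Its log2 fold change of -1.59 (SE 0.36) rests on few reads. SLBP, which binds the stem-loop of replication-dependent histone mRNAs, had 45.7, 50.4 and 41.7 CPM with EA and 79.5, 70.3 and 71.3 with DMSO, and fell by 0.68 (SE 0.08).

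Cyclins E and the E2F factors act upstream, and of the 8 roles theirs had the smallest median change, -0.76. CCNE1 had 13.6, 15 and 18.8 CPM in the EA libraries and 32.5, 31.6 and 32.4 in the DMSO libraries. CCNE2 had 5.66, 6.89 and 4.17 CPM in the EA libraries and 6.42, 6.18 and 5.94 in the DMSO libraries. CCNE1 was lower in every EA library, while CCNE2 overlapped between the groups. CCNE1 fell by 1.02 on the log2 scale (SE 0.11, adjusted p = 3.38e-07 in edgeR's quasi-likelihood test), and CCNE2 stood at -0.15 (95% interval -0.51 to 0.21, adjusted p = 0.427). Without EA replicate 3 the CCNE2 estimate was 0.0047. In the same annotation CCNE2 shares 37.0% of its exon length with INTS8 on the opposite strand, which had 228 to 261 reads with EA and 800 to 956 with DMSO.

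The log2 ratio of CCNE2 to CCNE1 reads was -1.26, -1.12 and -2.16 in the EA libraries and -2.33, -2.35 and -2.45 in the DMSO libraries. It was higher with EA in each library, narrowly in EA replicate 3. The difference of 0.86 gave p = 0.1 in an exact two-sided permutation test, the smallest possible. E2F1, an activator of the S phase programme, had 38.1, 41.8 and 23.5 CPM with EA and 80.7, 84.5 and 78.1 with DMSO and fell by 1.23 (SE 0.20). E2F2 had 8.78, 9.54 and 6.98 CPM with EA and 12.8, 12.1 and 10.8 with DMSO and fell by 0.50 (SE 0.13).

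The EA libraries were not equal. EA replicate 3 held 19202292 reads, against 15738089 and 18891478 in EA replicates 1 and 2. It was the lowest of the 3 EA libraries for 37 of 40 members, against 37.2% of all tested genes. The exceptions were MCM5, MCM6 and CCNE1. Among the 95 other tested replication genes described further on, EA replicate 3 was the lowest for 56 (58.9%). By group this ran from 78.9% in origin licensing and firing to 33.3% in chromatin assembly and histone mRNA. The median log2 ratio of the members to the DMSO mean was -1.39, -1.41 and -1.96 in EA replicates 1, 2 and 3. Over all tested genes it was -0.0107, 0.00659 and -0.0111. The median coefficient of variation of the members was 20.1% over the EA libraries and 4.52% over the DMSO libraries, against 10.8% and 6.26% over all tested genes. Members differed in this respect. EA replicate 3 stood at 0.984 and 0.968 times the mean of the other two EA libraries for MCM6 and MCM5, but at 0.353 for MCM10, 0.434 for GINS2, 0.446 for RRM2 and 0.496 for CDT1. CCNE1 was the highest there, at 1.31. Without EA replicate 3 the members' median log2 fold change was -1.46 and 39 were called lower. What sets this library apart was not tested.

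**Figure D4:**
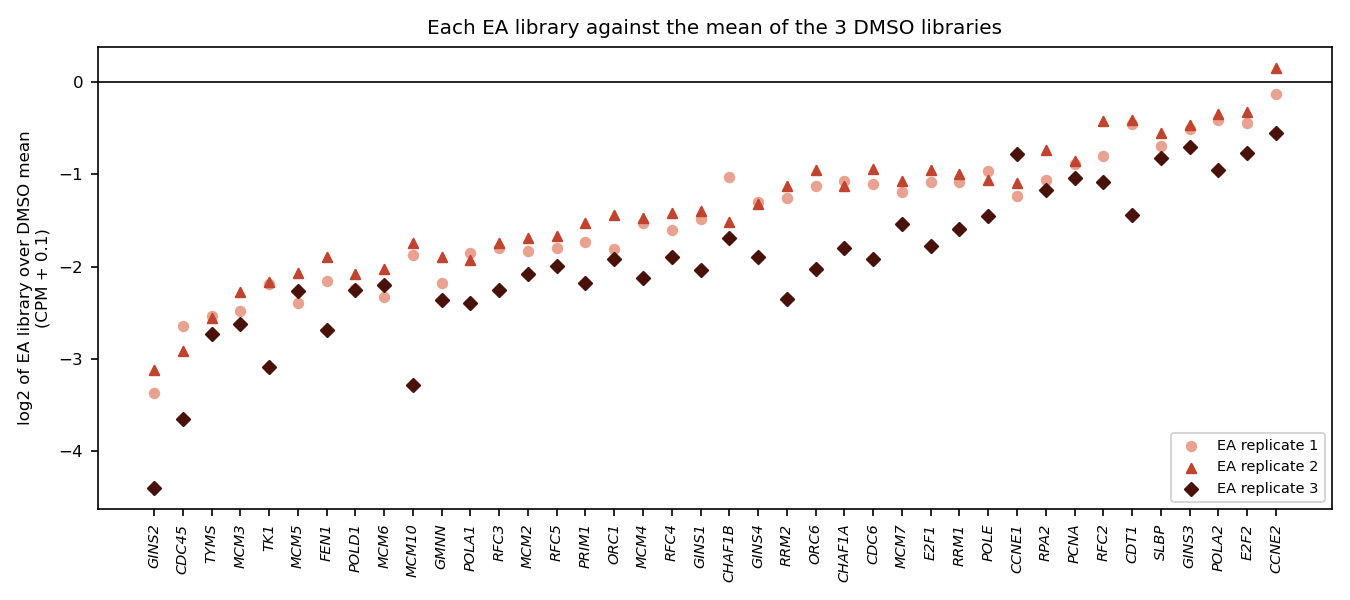
Log2 ratio of each EA library to the mean of the 3 DMSO libraries, with 0.1 CPM added to both, for the 40 members ordered by fold change. EA replicate 3 (diamonds) is the lowest point in 37 members, and CCNE1 is the member in which it is the highest.

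Motif, level and transcript length were set beside the fold changes. The 18 members with the E2F motif had a median log2 fold change of -1.44 and the 17 with a window but no motif one of -1.63, with ranges that overlapped. No motif here means no exact match to the 4 spellings searched, and near matches were not counted. Across the 40 genes the level in DMSO and the log2 fold change correlated weakly (Pearson r = -0.21, Spearman rho = -0.22, over genes of the same libraries). Over all tested genes, long transcripts had higher log2 fold changes than short ones, with medians of -0.17, -0.18, 0.03 and 0.29 in 4 classes from shortest to longest. The members in these classes had medians of -1.63, -1.83, -1.60 and -1.21. After correction for length and GC content the members' median was -1.49 with 38 called lower.

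Another 96 genes of replication and its control, listed by function in 6 groups, gave a more mixed picture. Of 95 tested, 68 were lower, 16 higher and 11 not called, with a median log2 fold change of -0.94. The shares over all tested genes, beside this count and that of each group below, were 40.5% lower and 40.5% higher. LIN37 was below the filter. Fork enzymes were lower in 17 of 20 cases, higher in 1 and not called in 2 (median -1.49). POLD2, a subunit of polymerase delta, fell by 2.38 on the log2 scale, the large clamp loader subunit RFC1 fell by 1.39 and POLE4 of polymerase epsilon fell by 1.63. The exception was POLD4, the smallest subunit of polymerase delta, with 15.7, 17.9 and 19 CPM with EA and 5.72, 6.0 and 5.03 with DMSO. It rose, with a log2 fold change of 1.65 (SE 0.12, adjusted p = 5.75e-09 in edgeR's test).

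Of 11 other genes of nucleotide supply 8 were lower, 1 higher and 2 not called (median -1.09). The CTP synthase gene CTPS1 fell by 1.78 and SAMHD1, which breaks down deoxynucleotides, fell by 1.39. The single higher gene of this group was RRM2B.

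In origin licensing and firing 13 of 19 genes were lower, 3 higher and 3 not called (median -0.55). WDHD1, which links polymerase alpha to the helicase, fell by 2.76, the fork protection gene TIMELESS fell by 1.13 and ORC2 fell by 0.98. The higher genes were MCM9, a helicase of recombination repair, at 0.88, DONSON, which helps deliver GINS to the helicase, at 1.01, and TOPBP1 at 0.19. DONSON was at only 4.29 ± 0.297 CPM with EA and 2.12 ± 0.347 with DMSO (SD, n = 3 each).

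**Figure D5:**
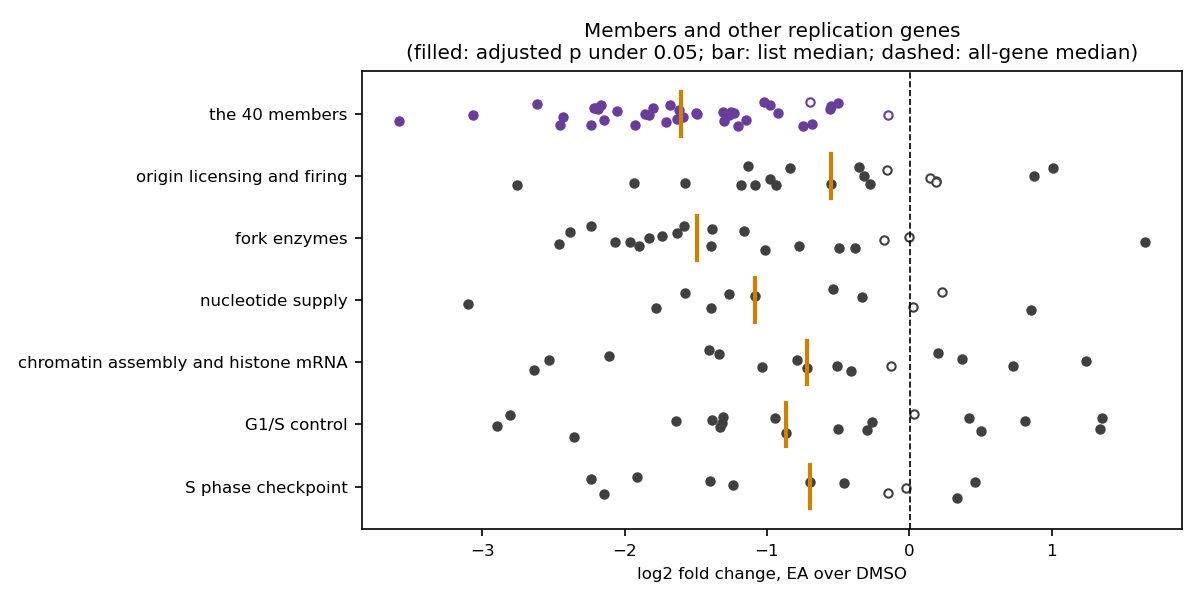
Log2 fold changes, EA over DMSO, of the 40 members (top row) and of 95 other tested replication genes by group. Filled points were called, orange bars are group medians, and the dashed line is the median of all tested genes. The members and the fork enzymes have the lowest medians, -1.60 and -1.49. All members lie left of the line, and each of the other 6 groups holds called genes on both sides of it, in the fork enzymes POLD4 alone on the right.

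Chromatin assembly and histone mRNA genes were lower in 10 of 15 cases, higher in 4 and not called in 1 (median -0.72). CABIN1 of the HIRA histone chaperone complex fell by 2.11, the histone chaperone NASP fell by 1.41 and RBBP4, the third subunit of CAF-1, fell by 1.03. Of the higher genes, ZNF473, which takes part in histone pre-mRNA processing, had 51.3, 57.4 and 52.8 CPM with EA and 23.5, 22.7 and 22.3 with DMSO (log2 fold change 1.24, SE 0.08). NPAT, which activates histone genes, had a log2 fold change of 0.72 and CASP8AP2 one of 0.37 (SE 0.08 each). Other histone mRNA factors of the list, named after their values were seen, did not share this direction. LSM10 fell by 0.72 and ERI1 fell by 0.41, and LSM11 was not called at -0.13.

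Genes of G1/S control were lower in 13 of 19 cases, higher in 5 and not called in 1 (median -0.87). The ubiquitin ligase subunit SKP2 fell by 2.36, the E2F partner TFDP1 fell by 1.64 and the retinoblastoma relative RBL1 fell by 1.32. FBXW7, the ligase subunit that marks cyclin E for destruction, had 61.2, 59.7 and 54.7 CPM with EA and 23.3, 22.9 and 22.5 with DMSO and rose, with a log2 fold change of 1.35 (SE 0.08). LIN54 of the DREAM complex rose by 0.81. E2F7 had 69.5, 65.6 and 49 CPM with EA and 23.9, 25.4 and 23.2 with DMSO and rose by 1.34 (SE 0.12, adjusted p = 2.41e-07 in edgeR's test). The E2F genes of this list, named as a family after their values were seen, were mixed. E2F3 and E2F6 were higher, with log2 fold changes of 0.42 and 0.51, E2F5 and E2F8 were lower, with -0.94 and -2.80, and E2F4 was not called at 0.03.

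Of 11 S phase checkpoint genes 7 were lower, 2 higher and 2 not called (median -0.70). The kinase genes CHEK2, CHEK1 and ATR fell, with log2 fold changes of -2.24, -1.91 and -1.24. HUS1, a subunit of the checkpoint clamp, and WEE1, which inhibits cyclin-dependent kinases, rose by log2 fold changes of 0.46 and 0.33 (SE 0.10 and 0.12). WEE1 overlapped between the groups, at 107, 104 and 75.1 CPM with EA and 78.9, 71.9 and 76.8 with DMSO.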

How the data were processed

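Per the labels' protocols, RNA was extracted with TRIzol, made into NEBNext Ultra libraries and sequenced in pairs. HTSeq 0.6.1, HISAT, cutadapt 1.9.1, bcl2fastq 2.17.1.14 and the build hg19 are named in the submitters' processing notes, which state no strand setting, annotation or counting mode. The authors deposited raw counts, whole reads per gene, whose 6 columns matched the samples by name. Genes were filtered with filterByExpr (minimum count 10), scaled by TMM and tested with edgeR 4.0.16 in R 4.3.3 (robust quasi-likelihood F test, Benjamini-Hochberg adjustment over all 15648 tested genes). The SE is the log2 fold change over the square root of F. Log2 ratios of reads had 0.5 reads added. The test was run on simulated data in which far fewer genes changed than were called here and no library stood apart, so that check does not cover these conditions. Gene length, GC content and exon overlaps came from GENCODE 29 (GRCh38), so no gene coordinates from it are given beside the hg19 counts. Alternatives are DESeq2 1.42.0, limma 3.58.1 (voom), other scalings, filters and thresholds, thinning, length and GC correction, a replicate block and each library left out. The members, lists and tests were chosen with earlier results of these data known. Every member is named, and of each other list up to 3 lower and 3 higher called genes with the smallest p, besides the E2F genes, LSM10, LSM11, ERI1, LIN37 and overlapping genes. One gene that this rule selects is not reported here. All 37 genes named MT- were listed at 0 reads.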

Additional observations from a re-analysis of the deposited data

How the results depend on the processing

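Between 37 and 39 members were called lower, and 0 higher, under all 18 alternatives, and the members' median log2 fold change ran from -1.73 (no filter on low counts) to -1.49 (length and GC correction), or from -1.74 to -1.46 with a library left out. The median of all tested genes was 0.25 without a filter and within 0.04 of 0 under every scaling. Since each scaling makes levels relative within a library, this median cannot show a change in total RNA. Of 719 values of single members, 713 kept their direction and call. CCNE2 ran from -0.35 to 0.0047 with a library left out and was called in none. CDT1 was called by DESeq2, by limma-voom, with the replicate block and without EA replicate 3 (adjusted p 0.0496, 0.00228, 0.0156 and 5.60e-11). RRM2 was lost at an adjusted p of 0.01. The other replication genes gave 61 to 72 lower and 12 to 18 higher. The ratio differences kept their direction without any 1 library (CDT1 to GMNN 1.21 to 1.61, CCNE2 to CCNE1 0.67 to 1.19, RRM2B to RRM2 1.95 to 2.67).

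Deviations of EA and DMSO libraries with the same replicate number correlated at -0.084, 0.027 and -0.015, and not every library correlated best with its own number. Whether the numbers mark paired libraries was not tested. With the replicate block 12537 genes were called against 12680, and 39 members were lower. In the ratios the block leaves a smallest p of 0.25. For CHAF1B, and for a fall within the spread of EA replicate 3, depth and 3 libraries limit what can be shown.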

Other observations

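The E2F motif matches of the members lay between 187 bases before and 7 bases after the annotated start, counted at the first base of the match, and 20 of the 25 matches lay within 100 bases of it. These are counts of letters, with no test, and the members were chosen for roles in which E2F motifs are known.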
